A study of Mus musculus with 7 samples.

Results

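The genes that encode the subunits, activators and assembly factors of the proteasome were described across 7 mouse liver RNA libraries. They were taken by symbol, as every row named Psma, Psmb, Psmc, Psmd, Psme, Psmf or Psmg followed by a number, which gave 48 genes of 33887 gene symbols (50 of 37468 table rows). Pseudogenes and Psmc3ip, whose symbols go on after the number, were not taken. By family the 48 were 16 core genes (8 Psma, 8 Psmb), 20 regulatory genes (Psmc and Psmd), 5 immunoproteasome genes (Psmb8, Psmb9, Psmb10, Psme1 and Psme2) and 7 others (Psme3, Psme4, Psmf1 and Psmg1 to Psmg4). A gene was tested if it reached 1 FPKM (fragments relative to transcript length and to library size) in at least 1 library, and 46 members did.

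The study profiled liver of C57BL/6 mice in 4 groups: 2 wild-type libraries (WT), 2 from SunTag-dCas9 knock-in mice (SunTag), 1 in which Myod1 was activated (Myod1_active) and 2 controls of that activation (Myod1_control). The Myod1_control and Myod1_active libraries also came from SunTag-dCas9 mice, so these 2 groups and SunTag share the dCas9 transgene. dCas9, a Cas9 without cutting activity, still binds where its guide RNA matches, and SunTag is a peptide array that gathers effector proteins on it. The sources used here do not give the promoter that drives the transgene, the age and sex of the mice, the means of activating Myod1 or the treatment of the controls. The labels do not say whether each library is a separate animal. The p-values therefore measure library-to-library spread, which may be technical.

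The proteasome is the large protease that degrades ubiquitin-tagged proteins. Its core particle is a barrel of alpha and beta rings, and 3 of the beta subunits (encoded by Psmb5, Psmb6 and Psmb7) cut peptide bonds. A regulatory particle of ATPase subunits (Psmc) and non-ATPase subunits (Psmd) sits on the barrel, binds the ubiquitin chain, removes it and unfolds the substrate. In immune cells, and in hepatocytes exposed to interferon gamma, the catalytic subunits encoded by Psmb8, Psmb9 and Psmb10 are built in instead of the constitutive ones, and the Psme1 and Psme2 products form an alternative cap. That form is known for cutting peptides for display on MHC class I. Constitutive subunit genes are known targets of Nfe2l1, a transcription factor that binds antioxidant response elements, while the inducible genes are known targets of interferon-activated factors.

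These 4 stretches of promoter are shown because they carry, in members that encode catalytic or cap subunits, a match to the letters of one of these elements. They come from RefSeq on GRCm38.p6, 5′ to 3′ on the gene's strand, each 30 bases long, with the match in capitals. Psmb5 (chr14:54618023-54618052, minus strand) and Psmb6 (chr11:70525338-70525367, plus strand) hold the antioxidant response element letters TGACNNNGC. Psmb8 (chr17:34198088-34198117, plus strand) holds the gamma-activated site letters TTCNNNGAA. Psme1 (chr14:55578493-55578522, plus strand) holds the letters of an interferon-stimulated response element (GAAA, any 2 bases, GAAA), read on the opposite strand. The stretches of Psmb6, Psmb8 and Psme1 overlap an annotated exon.
Psmb5: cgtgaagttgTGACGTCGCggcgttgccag
Psmb6: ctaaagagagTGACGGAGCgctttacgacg
Psmb8: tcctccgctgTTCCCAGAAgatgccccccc
Psme1: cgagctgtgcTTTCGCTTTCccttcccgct

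With the annotated start base counted as 0, the first base of the match lies at position -47 in Psmb5, -9 in Psmb6, -97 in Psmb8 and 9 in Psme1. The windows searched ran from 250 bases before to 50 after each start, both strands were read, and 40 of the 48 members had a window. Antioxidant response element letters were in 6 of these 40 members (15.0%), namely Psmb5, Psmb6, Psmc6, Psmd12, Psmd9 and Psme4, beside 14.0% of 27025 genes. Interferon-stimulated response element letters were in 5 (12.5%), namely Psmb3, Psmd4, Psmd9, Psme1 and Psmg4, beside 3.99% of genes. Gamma-activated site letters were in 3 (7.5%), namely Psmb8, Psmd2 and Psmg1, beside 9.55% of genes. The CCAAT box (CCAAT) was in 14 (35.0%), beside 41.1% of genes. A match is a description and not a binding site, and the shares have no test. Psmb9 held neither of the interferon-related sets of letters in its window. No match to any of these sets of letters was found for Psmb10 or Psme2, which may be among the members without a window.

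Some facts of the libraries bear on every comparison. FPKM sums lay between 1.26e+06 and 1.97e+06, and a relative depth read from the deposited bounds lay between 0.942 and 1.09 of the mean over libraries. All members together took 0.183% to 0.239% of the FPKM sum. Over genes (not independent replicates), log2 values of the WT and SunTag libraries correlated with each other at Pearson's r of 0.943 to 0.958 and with the Myod1_control and Myod1_active libraries at 0.866 to 0.903. Xist, expressed from the inactive X of female cells, was at 56.9 to 82.2 FPKM in WT and SunTag and at most 0.324 in the other 3 libraries, and the 4 Y-linked genes listed were higher in those 3. By these genes the 2 experiments used mice of different sex, so sex, experiment and group cannot be told apart when they are compared. Myod1 itself was at 3.52 FPKM in Myod1_active and listed at 0 elsewhere. Hepatocyte markers were high, as the tissue label says, and summed to 68289 to 81852 FPKM in WT and SunTag. In the Myod1 libraries they summed to 47365 to 50130. Between Myod1_control and SunTag, 6 of these 8 markers were below the median gene and 2 above.

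Markers of other liver cells also differed between the 2 experiments. Kupffer cell and macrophage markers (8 of 9 listed had a row) summed to 184 to 294 FPKM in WT and SunTag and to 39.9 to 43.6 in the Myod1 libraries. Endothelial markers (8 genes) summed to 177 to 191 against 36.8 to 55.3. Lymphocyte markers (12 genes) summed to 10.3 to 18.5 against 1.68 to 8.53, with none listed at 0 in WT and SunTag and 4 to 7 listed at 0 in the Myod1 libraries. Of these, Cd4 was at 0.296 to 0.389 FPKM in WT and SunTag. It was at 2.90 and 0.201 in Myod1_control and at 7.38 in Myod1_active. Red cell markers (4 genes) summed to 1375 to 3801 FPKM against 37.9 to 45.5. Among them, Alas2 went the other way, at 7.42 to 21.7 against 34.0 to 44.1. SunTag replicate 1 had the highest sums of neutrophil markers (44.2, against 6.17 to 15.7 in the other WT and SunTag libraries) and of red cell markers. In bulk tissue, fewer cells of a type and less RNA per cell cannot be told apart.

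Every member of the core and regulatory particles except the tissue-restricted ones was expressed in all 7 libraries. Levels between genes are compared in FPKM, which is per length. The core genes were the more abundant: the mean of log2(FPKM + 1) over the 14 tested core genes exceeded that over the 20 regulatory genes by 1.06 and 1.07 in WT, by 1.18 and 1.04 in SunTag, by 0.82 and 0.61 in Myod1_control and by 0.84 in Myod1_active. The gap was thus narrower in all 3 Myod1 libraries than in any of the other 4. By the mean over libraries the most abundant core gene was Psmb4, a non-catalytic beta subunit, at 124 to 281 FPKM, and the most abundant alpha gene was Psma3, at 84.4 to 307. In WT and SunTag the Psmb4 values lay above their own deposited bounds, the highest of which was 204, so its rank is uncertain. In the 3 Myod1 libraries Psma7, at 111 to 120, was above Psma3. The least abundant tested core gene was Psma2, an alpha subunit, at 10.3 to 23.9. Psma8, the testis alpha subunit that replaces the Psma7 product, was at 0.0956 to 0.660 FPKM. Psmb11, the thymus-specific beta subunit, was at 0.158 to 0.388. Both were below the filter and were not tested.

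**Figure D1:**
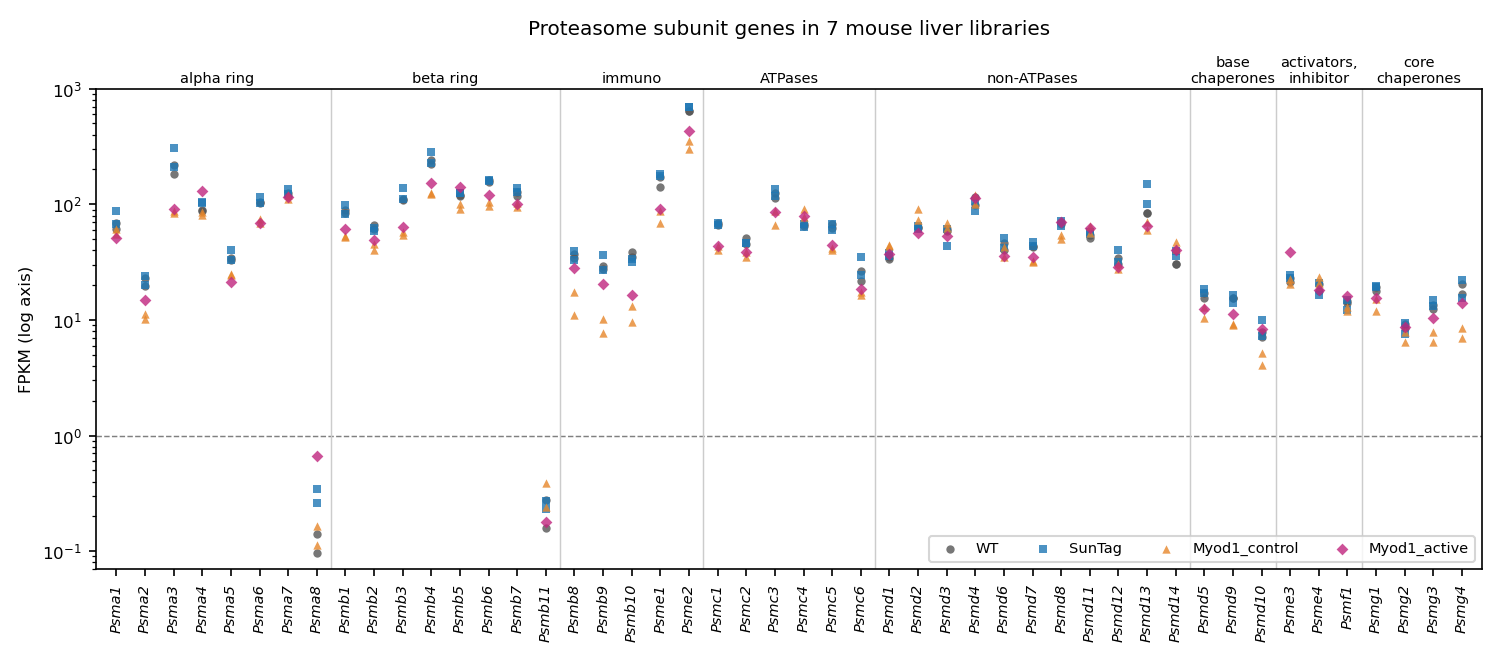
FPKM (log axis) of each of the 48 members in each of the 7 libraries, ordered by family; each point is 1 library, and the dashed line marks the filter of 1 FPKM. Psma8 and Psmb11 lie below the line in every library, Psme2 lies highest, and the Myod1_control points of the immunoproteasome genes lie below all WT and SunTag points.

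Among the regulatory genes, Psmd4, the ubiquitin-binding receptor, was at 87.8 to 121 FPKM and Psmc3, an ATPase, at 66.8 to 134. Psmc6 was the lowest ATPase (16.5 to 35.1) and Psmd12 the lowest non-ATPase (27.5 to 40.1). Of the chaperones that assemble the base, Psmd5 was the highest (10.4 to 18.6). Psmd10, which encodes the assembly chaperone gankyrin, was the lowest of the family, at 4.08 to 9.90. Among the immunoproteasome genes the spread was widest. Psme2, a subunit of the alternative cap, was the most abundant member of all, at 302 to 699 FPKM, and Psmb9 was the least abundant of the 5 by the mean, at 7.66 to 36.1, although Psmb10 was below it in SunTag replicate 1 and Myod1_active. Psme1 encodes the partner of the Psme2 product, and its FPKM was 0.209 to 0.266 of that of Psme2 in every library. Psme3, a nuclear cap subunit, was at 20.4 to 38.8 FPKM, and Psmf1, the inhibitor gene, at 11.9 to 16. Psmg2 was the lowest of the 4 core assembly chaperones, at 6.38 to 9.49, and Psmg1 the highest by the mean, at 12.0 to 19.5.

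The first comparison, SunTag with WT, shows the proteasome genes in the knock-in strain. No member passed limma's test, 0 of 46, where 0.127% of all genes did (0.0508% higher, 0.0762% lower). At an unadjusted p under 0.05 the members numbered 0 as well, where 0.883% of genes were higher and 1.07% lower. The median log2 difference relative to the median gene was 0.08 in the core (13 of 14 above the median gene), 0.05 in the regulatory genes (11 of 20) and 0.09 in the immunoproteasome (4 of 5). The core median was 0.17 without SunTag replicate 2 and 0.016 without SunTag replicate 1. The regulatory median was 0.0021 without WT replicate 1, 0.019 without WT replicate 2 and 0.016 without SunTag replicate 1. The immunoproteasome median was 0.02 without WT replicate 1 and -0.07 without SunTag replicate 1, where 18 of 46 members changed side of the median gene. Groups did not overlap for 10 members that were higher (13.0% of all genes) and for 1 that was lower (12.8% of all genes), Psmb10.

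The widest difference was that of Psmd13, a non-ATPase subunit of the lid. Its FPKM was 84.6 and 83.5 in the WT libraries, 100 in SunTag replicate 1 and 150 in SunTag replicate 2, so the groups did not overlap but the 2 SunTag libraries were far apart. The log2 difference relative to the median gene was 0.53 (SE 0.228, limma adjusted p = 1), and it was 0.24 without SunTag replicate 2 and 0.83 without SunTag replicate 1. Psmd3, another lid subunit, had the lowest difference, -0.21 (limma adjusted p = 1); WT libraries had 58.3 and 61.1 FPKM, SunTag libraries 43.9 and 61.4. The other families ranged from 0.03 (Psma2) to 0.32 (Psma3) in the alpha ring, from -0.09 (Psmb2) to 0.16 (Psmb3) in the beta ring and from -0.18 (Psmb10) to 0.18 (Psme1) in the immunoproteasome. The ATPase genes ranged from -0.07 (Psmc2) to 0.26 (Psmc6) and the base chaperones from -0.04 (Psmd9) to 0.15 (Psmd10). The rest ranged from -0.09 (Psmf1) to 0.07 (Psme3) among activators and inhibitor, and from -0.07 (Psmg2) to 0.10 (Psmg3) among the core chaperones. The catalytic genes lay close together. Psmb5 had 119 and 120 FPKM in WT beside 126 and 126 in SunTag, Psmb6 was at 155 to 163 over the 4 libraries, and Psmb7 was at 117 to 138.

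**Figure D2:**
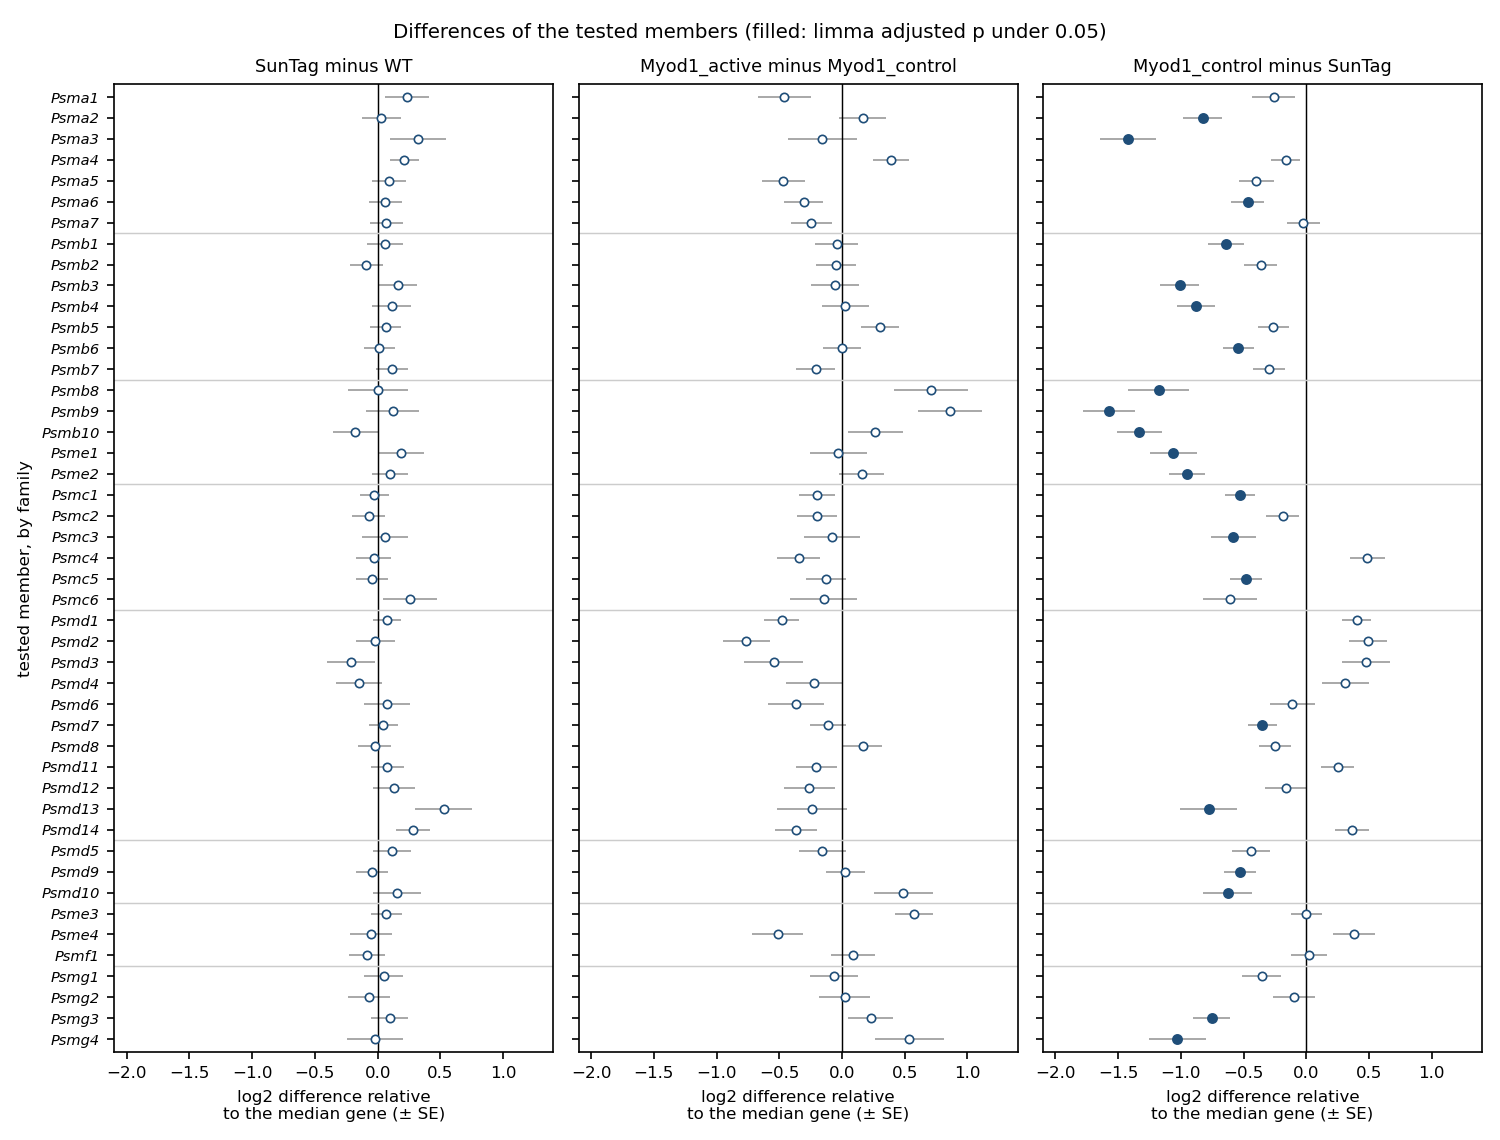
Log2 difference relative to the median gene (x axis) of each of the 46 tested members in 3 comparisons; bars are the standard error from limma and filled points passed at an adjusted p under 0.05. No point is filled in the first and the second panel, and 21 are filled in the third, all left of 0.

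The second comparison, Myod1_active with Myod1_control, asks what differs in liver with Myod1 activated. It set 1 library against 2, so the activated arm has no replicate check and its spread was assumed to be that of the other groups. No member passed limma's test, 0 of 46, beside 0.254% of all genes (0.216% higher, 0.0381% lower), and the lowest adjusted p was 0.152. At an unadjusted p under 0.05, 9 members were higher, beside 17.2% of all genes, and 1 was lower, beside 2.31%. The median gene itself was 0.25 higher in Myod1_active on the log2 scale, so differences are given relative to it. With libraries scaled to a common median ratio, which takes that shift off, the counts were 2 higher and 5 lower at an unadjusted p under 0.05, and again none passed. Relative to the median gene, 30 of the 46 tested members were below 0. Without a filter on low values 19 of 48 were, so the majority turned.

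Of all tested members, the immunoproteasome genes Psmb9 and Psmb8 had the highest differences in this comparison. Psmb9, whose product replaces that of Psmb6, was at 20.3 FPKM in Myod1_active and at 10.2 and 7.66 in the controls. Its log2 difference was 0.86 relative to the median gene (SE 0.256, limma adjusted p = 0.167). Psmb8, whose product replaces that of Psmb5, was at 28 FPKM against 17.4 and 11.1 (difference 0.71, SE 0.295, limma adjusted p = 0.208). Psmb10, whose product replaces that of Psmb7, was at 16.4 against 13.1 and 9.51 (0.26, limma adjusted p = 0.278). The activated library thus lay above both controls for all 3, as it did for 61.4% of all genes. It stayed below both WT and both SunTag libraries for Psmb9 (26.9 to 36.1), Psmb8 (32.8 to 39.6) and Psmb10 (31.9 to 38.3). The Psmb9 value is a sum of 2 rows that differed. In 1 row Myod1_active was at 11.6, within the WT and SunTag range (11.3 to 12.7), against 5.45 and 2.77 in the controls. In the other row it was at 8.73, below WT and SunTag (14.9 to 24.5), against 4.78 and 4.88. Psme1 and Psme2 had differences of -0.03 and 0.16. The median over the 5 genes was 0.26, with 4 of 5 above the median gene, and it lay between 0.06 and 0.47 with 1 library left out. Divided by median-ratio factors, Psmb10 was at 14.6 in Myod1_active and at 14.6 and 10.6 in the controls.

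Over the constitutive core genes the median difference was -0.05, with 4 of 14 above the median gene. Without a filter on low values it was 0.13. Psma4, an alpha subunit, was at 131 FPKM in Myod1_active and at 81.2 and 85.8 in the controls (difference 0.39, SE 0.142, limma adjusted p = 0.162). Psmb5, the catalytic subunit with chymotrypsin-like activity, was at 141 against 100 and 90.7 (0.30, SE 0.150, limma adjusted p = 0.184). Both lay above every other library of the study. At the other end of the core, Psma5 was at 21.3 FPKM against 25.1 and 24.6 (-0.47, limma adjusted p = 0.496). The other catalytic genes had differences of -0.0021 (Psmb6, SE 0.151) and -0.21 (Psmb7, SE 0.155).

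Among the regulatory genes 17 of 20 were under the median gene, and the median difference was -0.20. Psmd2, a scaffold subunit of the base, was at 56.6 FPKM in Myod1_active and at 72.4 and 90.5 in the controls, a difference of -0.76 (SE 0.187, limma adjusted p = 0.245). It was the single lower member at an unadjusted p under 0.05. Psmd8, a lid subunit, was the one non-ATPase gene above the median gene (0.16). Psmd10 had the highest difference of the family, with 8.34 FPKM against 4.08 and 5.14 (0.49, limma adjusted p = 0.217), and Psmd5 the lowest of the base chaperones (-0.16). All 6 ATPase genes were below the median gene, from -0.35 in Psmc4 to -0.08 in Psmc3. Without a filter on low values, the median gene shifted by 0.07 in place of 0.25, and the regulatory median relative to it was -0.019.

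Of the remaining members, Psme3 had the lowest adjusted p of all in this comparison. It was at 38.8 FPKM in Myod1_active, at 22.5 and 20.4 in the controls and at 21.5 to 24.3 in WT and SunTag, so the activated library stood apart from the other 6 (difference 0.58, SE 0.151, limma adjusted p = 0.152). Psme4, which encodes a large single-chain activator, was at 18.3 against 20.9 and 23.4 (-0.51, limma adjusted p = 0.492). The inhibitor gene Psmf1 was at 16 FPKM against 12.9 and 11.9 (0.09). The 4 core assembly chaperones were each above both controls in FPKM, the widest being Psmg4 at 14.0 against 8.53 and 6.93 (0.54, limma adjusted p = 0.235), and Psmg1 had the lowest difference of the 4 (-0.06). Over all members the activated library lay above both controls for 26 (61.4% of all genes) and below both for 7 (16.6%). With median-ratio scaling these counts became 11 and 29, so on which side of the controls a member lay depends on the scaling.

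The third comparison set the Myod1_control libraries against the SunTag libraries, both from SunTag-dCas9 mice, and shows how far control livers of the 2 experiments differ. It shares its libraries with each of the other comparisons, the SunTag libraries with the first and the controls with the second. Of the 46 tested members 21 were lower in the controls by limma's test and 0 higher, where 17.0% of all genes were lower and 7.3% higher. At an unadjusted p under 0.05, 30 were lower (27.9% of all genes) and 0 higher (13.8%). Groups did not overlap for 35 members that were lower (41.6% of all genes) and 6 that were higher (24.9%). The count of 21 rests on the whole set of libraries: it was 0 without WT replicate 1, WT replicate 2, Myod1_control replicate 1 or Myod1_control replicate 2, and 5 without SunTag replicate 1 (Psma3, Psmb3, Psmb4, Psmb9 and Psmd13). It was also 0 in a fit of the 4 compared libraries alone, in which 25 members were lower at an unadjusted p under 0.05. The count over all genes fell with it, from 3832 to 59 without WT replicate 1 and to 255 in the fit of 4 libraries. With median-ratio scaling 13 members were lower and 0 higher, and all 13 were among the 21.

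All 5 immunoproteasome genes were lower in the controls by limma's test (17.0% of all genes), with a median of -1.18 relative to the median gene. Psmb9 was at 36.1 and 26.9 FPKM in SunTag and at 10.2 and 7.66 in Myod1_control (difference -1.57, SE 0.209, limma adjusted p = 0.0176). Psmb10 was at 31.9 and 33.5 against 13.1 and 9.51 (-1.33, SE 0.179, limma adjusted p = 0.0176). Psmb8 was at 39.6 and 32.8 against 17.4 and 11.1 (-1.18, SE 0.241, limma adjusted p = 0.0267). The groups were far from overlapping in all 3, and the SunTag mean was 3.52, 2.89 and 2.54 times the control mean. The cap genes were lower by a similar amount. Psme1 was at 184 and 175 FPKM against 88.3 and 68.5 (-1.06, limma adjusted p = 0.0217), and Psme2 at 699 and 690 against 354 and 302 (-0.95, limma adjusted p = 0.0189). All 5 also passed with median-ratio scaling. Their median was -1.47 without Myod1_control replicate 1 and -0.87 without Myod1_control replicate 2, and none of the 5 passed when either was left out.

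The inducible subunits were lower relative to the constitutive subunits they replace, a ratio within each library that does not move with scaling. The FPKM of Psmb8 was 0.286 and 0.311 of that of Psmb5 in WT, 0.314 and 0.260 in SunTag, 0.173 and 0.122 in Myod1_control and 0.199 in Myod1_active. That of Psmb9 was 0.178 and 0.180 of that of Psmb6 in WT, 0.221 and 0.168 in SunTag, 0.0971 and 0.0795 in Myod1_control and 0.169 in Myod1_active. That of Psmb10 was 0.278 and 0.328 of that of Psmb7 in WT, 0.232 and 0.260 in SunTag, 0.137 and 0.0935 in Myod1_control and 0.162 in Myod1_active. In all 3 pairs the controls lay below the WT and SunTag libraries with no overlap, and the activated library lay above both controls. It reached the range of WT and SunTag for the pair of Psmb9 and Psmb6 alone. In the activated library alone, Psmb6 lay within its deposited bounds (120 FPKM, bounds 115 to 125). In the others Psmb6 lay above them. The mean ratio in SunTag was 1.94, 2.21 and 2.13 times that in the controls. With 2 libraries a group an exact permutation test cannot reach a p under 0.05, so the ratios are given without a test.

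**Figure D3:**
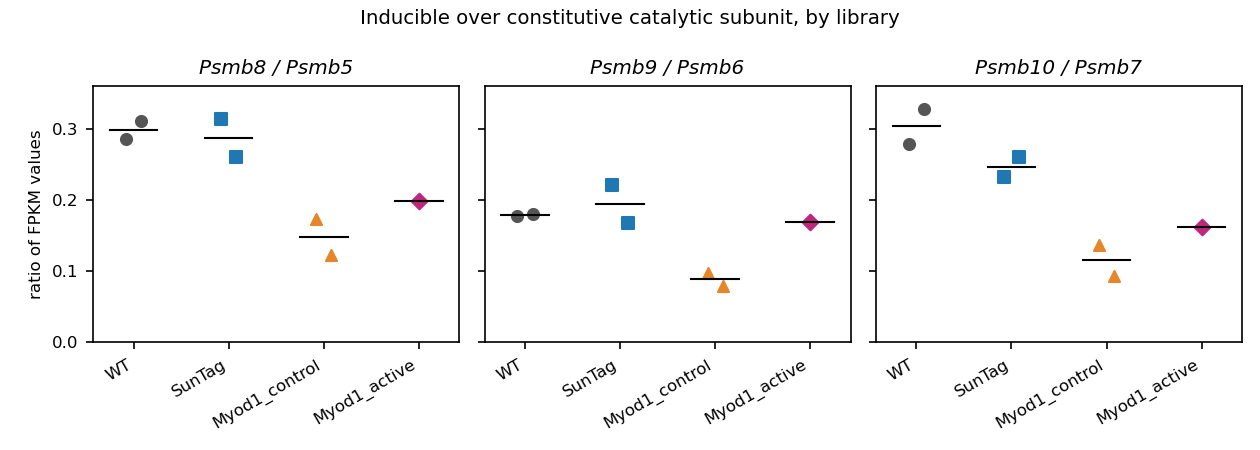
Ratio of FPKM values of an inducible catalytic subunit gene to the constitutive one it replaces (y axis), by group; each point is 1 library and the line is the group mean (1 library in Myod1_active). The 2 Myod1_control points are the lowest in each panel, at 0.0795 to 0.173.

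The ratio of cap genes differed between the experiments too. The FPKM of Psme2 was 27.9 and 30 times that of Psme3 in WT, 28.8 and 30 times in SunTag, 15.8 and 14.8 times in Myod1_control and 11.2 times in Myod1_active. Psme3 itself was at 24.3 and 23.0 FPKM in SunTag and 22.5 and 20.4 in the controls (difference -0.0026, limma adjusted p = 0.436), while Psme2 was lower.

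All 14 tested core genes were below the median gene and were lower in Myod1_control than in SunTag without overlap (41.6% of all genes). By limma's test 7 passed as lower (17.0% of all genes): Psma2, Psma3, Psma6, Psmb1, Psmb3, Psmb4 and Psmb6. The median was -0.43. Psma3, an alpha subunit, had the widest difference, with 307 and 210 FPKM in SunTag and 84.4 and 86.8 in the controls (-1.42, SE 0.224, limma adjusted p = 0.0204). Psmb3, a beta subunit, was at 139 and 111 against 57.7 and 53.8 (-1.01, limma adjusted p = 0.0195), and Psmb4 at 281 and 230 against 126 and 124 (-0.88, limma adjusted p = 0.0212). Psma2 was at 23.9 and 20.1 against 11.3 and 10.3 (-0.83, limma adjusted p = 0.0226). In each of these 4 the controls lay near the same value and SunTag replicate 1 was the higher of its group. For Psmb4, the FPKM lay above its own deposited bounds in SunTag (186 to 204 and 168 to 184). In Myod1_control it lay within them (121 to 132 and 118 to 129), so the size of its difference is uncertain. Differences were smaller in Psmb1 (-0.64, limma adjusted p = 0.0267), Psmb6 (-0.54, 0.0265) and Psma6 (-0.47, 0.0346), of which Psmb6 and Psma6 did not pass with median-ratio scaling. Psma7, at 122 and 136 FPKM against 111 and 120, had the smallest difference (-0.02, limma adjusted p = 0.407). Of the catalytic genes, Psmb5 (-0.26, limma adjusted p = 0.0721) and Psmb7 (-0.30, 0.0653) did not pass.

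The regulatory genes were divided. Of 20, 7 passed as lower and 0 as higher (17.0% and 7.3% of all genes), and the median was -0.22. Among the 6 ATPases 3 were lower (17.0% of all genes), and the median was -0.50. They were Psmc1 (-0.53, limma adjusted p = 0.0256), Psmc3 (-0.58, 0.0474) and Psmc5 (-0.48, 0.0328). Psmc6 had the lowest difference of the 6 and did not pass (-0.61, limma adjusted p = 0.0641). Psmc4 was the single ATPase above the median gene, at 64.0 and 67.4 FPKM in SunTag and 77.1 and 91.5 in the controls (0.49, limma adjusted p = 0.126). Among the 11 non-ATPases 2 were lower, a share near the 17.0% of all genes, and the median was 0.25. They were Psmd7 (-0.35, limma adjusted p = 0.0426) and Psmd13 (-0.78, 0.0463). Psmd13 was at 100 and 150 against 59.5 and 70.2 FPKM, and its adjusted p was 0.0572 without SunTag replicate 2. Psmd2, the highest of the family, was at 61.3 and 65.0 FPKM in SunTag and 72.4 and 90.5 in the controls (0.49, limma adjusted p = 0.148). Psmd3 (0.47), Psmd1 (0.40) and Psmd14, the gene of the deubiquitinase of the lid (0.37), lay on the same side and did not pass. Psmd14 sums 2 rows, 1 of them at 6.00 FPKM in Myod1_control replicate 2 and at most 0.00665 elsewhere. Its other row lay above its deposited bounds in Myod1_control (40.8, bounds 27.6 to 34.0, and 41.6, bounds 29.4 to 36.3). In SunTag that row lay within them (35.8, bounds 33.3 to 38.4, and 39.1, bounds 35.2 to 42.0), so the difference of Psmd14 is uncertain. Psmd1 lay above its bounds in every library, as in Myod1_control replicate 1 (43.6, bounds 33.2 to 38.8).

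The 3 chaperones that assemble the base were all below the median gene, and Psmd9 (-0.53, limma adjusted p = 0.0288) and Psmd10 (-0.63, 0.0479) passed while Psmd5 did not (-0.44, 0.0516). Among the core assembly chaperones Psmg3 was at 15.0 and 13.2 FPKM against 7.84 and 6.46 (-0.75, limma adjusted p = 0.0234). Psmg4 was at 22.0 and 15.4 against 8.53 and 6.93 (-1.03, limma adjusted p = 0.0292). Psmg1 (-0.36) and Psmg2 (-0.10) did not pass, and neither did Psme4 (0.38) or Psmf1 (0.02). Of the 21 members, 8 did not pass with median-ratio scaling: Psma6, Psmb6, Psmc3, Psmc5, Psmd7, Psmd9, Psmd10 and Psmd13. No core gene and no immunoproteasome gene was above the median gene, whereas 7 of 20 regulatory genes were.

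Transcript length moved with these differences. Lengths came from the GENCODE M21 annotation, not from the authors' tables, and were found for all 46 tested members and for 95.9% of tested genes. Between Myod1_control and SunTag, longer genes had higher differences, with Spearman's rho of 0.37 over 15098 genes and 0.34 over the 46 members; both are across genes of the same libraries and have no test. Genes up to 1000 bases long had a median of -0.46 and the 10 members among them -0.65, while genes over 5000 bases had a median of 0.40. The median length was 1120 bases in the core, 1614 in the regulatory genes and 1311 in the immunoproteasome, against 2060 over all genes. In the class of 1000 to 1500 bases, the median of all 1764 genes was -0.25 and that of the 15 members -0.30. Psmb9 (-1.57) and Psmb10 (-1.33) belong to that class. From 1500 to 2000 bases the median of all 1810 genes was -0.07 and that of the 10 members -0.44. From 2000 to 3000 bases the medians were 0.05 over 3025 genes and 0.01 over 8 members. In the other comparisons rho over all genes was -0.17 (SunTag with WT) and -0.08 (Myod1_active with Myod1_control). The part of length in the result was not tested.

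**Figure D4:**
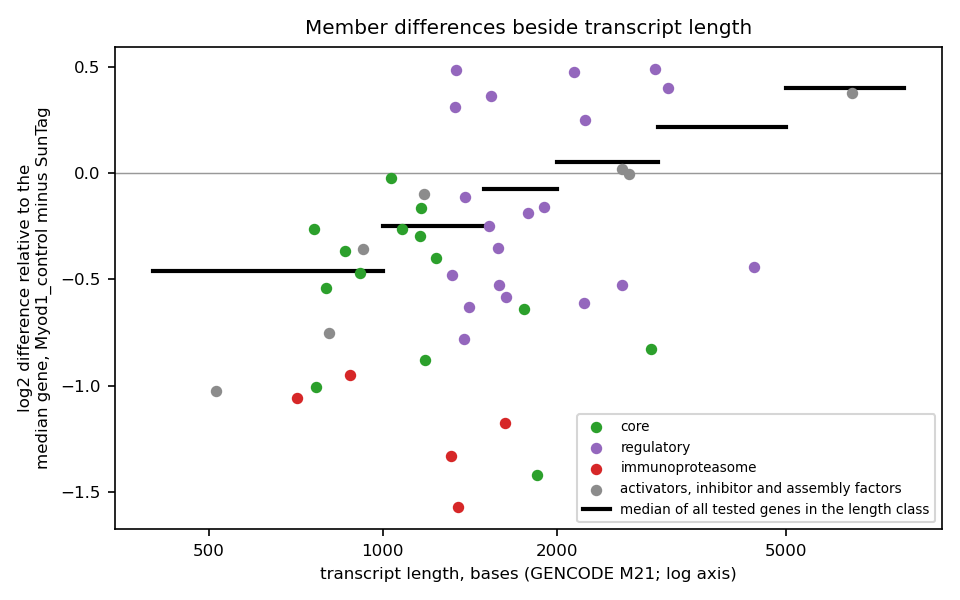
Log2 difference between Myod1_control and SunTag relative to the median gene (y axis) beside transcript length (x axis, log scale) for the 46 tested members; thick lines are the median of all tested genes in a length class. Short genes lie lower as a class (-0.46 up to 1000 bases), and the 5 immunoproteasome genes lie below the line of their class.

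Genes that work with the proteasome were followed from set lists. Of 15 tested proteasome partners 3 were lower in Myod1_control than in SunTag and 2 higher, beside 17.0% and 7.3% of all genes. The lower ones were Pomp, the chaperone of core maturation, at 197 and 150 against 81.8 and 80.7 FPKM (-0.94, limma adjusted p = 0.0232), Shfm1, a small lid subunit (-1.46, 0.0270), and Uchl5, a deubiquitinase of the regulatory particle (-0.74, 0.0297). The stress-responsive Zfand2a (1.08, limma adjusted p = 0.0421) and Zfand5 (0.66, 0.0443) were higher. Adrm1, a ubiquitin receptor, was at -0.02, and the transcription factor genes Nfe2l1 (0.50, limma adjusted p = 0.166) and Nfe2l2 (0.28, 0.623) did not pass. Of 15 ubiquitin and shuttle genes 2 were lower and 2 higher (17.0% and 7.3% of all genes). The higher ones were Uba1, the main ubiquitin-activating enzyme (1.05, limma adjusted p = 0.0212), and Vcp, the segregase ATPase (0.81, 0.0370). None of the genes in these 2 lists passed in the other 2 comparisons.

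Of 10 tested genes that load peptides on MHC class I, 0 were lower in Myod1_control by limma's test (17.0% of all genes) and 1 at an unadjusted p under 0.05. Higher was 1 gene (7.3% of all genes) and 3 at an unadjusted p under 0.05, and 8 of 10 were above the median gene. The higher gene was Pdia3, a folding oxidoreductase (1.41, limma adjusted p = 0.0212). Tap1, which pumps peptides into the endoplasmic reticulum and lies next to Psmb9, was at 19.5 and 23.7 FPKM in SunTag and 28.8 and 20.4 in the controls (0.30, limma adjusted p = 0.589), so the groups overlapped. Tap2 (0.67, 0.101), Tapbp (0.98, 0.0951) and B2m (-0.66, 0.0695) did not pass. Of 13 interferon response genes 8 were lower (17.0% of all genes), among them Gbp2 (-1.31, limma adjusted p = 0.0418), Gbp3 (-1.64, 0.0140), Igtp (-1.26, 0.0140), Irgm1 (-0.93, 0.0214), Ifit1 (-1.85, 0.0102), Isg15 (-1.93, 0.0140) and Oasl2 (-1.16, 0.0247). Irf1 (0.06) and Nlrc5 (0.50), which encode transcription factors of the inducible genes, did not pass. In the same comparison 6 of 8 Kupffer cell, 6 of 7 lymphocyte and 7 of 8 endothelial markers were lower (17.0% of all genes). Their part in the difference of the immunoproteasome genes was not tested. Between Myod1_active and Myod1_control none of the genes in these 2 lists passed, and the summed Kupffer cell markers were at 43.6 against 39.9 and 42.9 FPKM. Lymphocyte markers summed to 8.53 against 3.61 and 1.68, of which Cd4 alone was at 7.38 against 2.90 and 0.201. In Myod1_active 7 of these 12 markers were listed at 0, and 2 of the 7 tested were above the median gene (median -0.25). Endothelial markers summed to 36.8 against 52.1 and 55.3. All 8 endothelial markers were below the median gene (median -0.76) and 7 below both controls (16.6% of all genes). By limma 0 passed and 4 were lower at an unadjusted p under 0.05 (2.31% of all genes). The part of these cells in the values of the immunoproteasome genes was not tested.

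**Figure D5:**
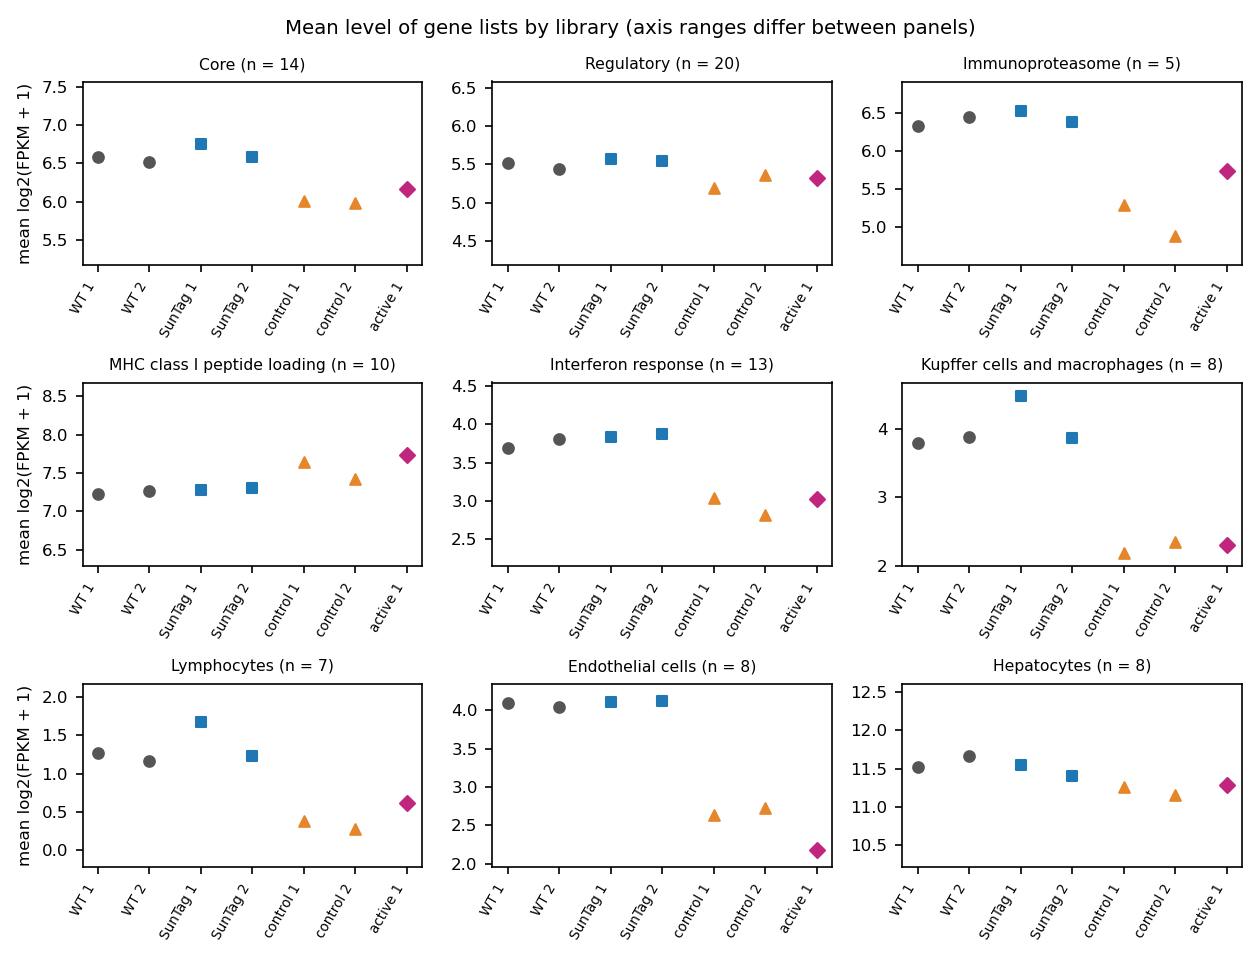
Mean log2(FPKM + 1) of the tested genes of 9 lists (y axis; ranges differ between panels) in each library, 1 point per library. Every panel except MHC class I is lower in all 3 Myod1 libraries than in WT and SunTag. This includes the core genes (5.98 to 6.17 against 6.52 to 6.75) and the hepatocyte markers (11.2 to 11.3 against 11.4 to 11.7).

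Several members overlap other genes or have close copies, and the sources used here do not say whether the counting used strand. Psmb9 (chr17:34318932-34324697 on mm9) had 2 rows of nearly the same span, which were summed, and overlapped Tap1 by 212 bases. The 2 rows did not move alike. In SunTag replicate 1 they were at 11.6 and 24.5 FPKM, the latter above its deposited bounds (12.2 to 18.1). The latter row also lay above its bounds in the other WT and SunTag libraries and in Myod1_active (8.73, bounds 4.03 to 7.51). In Myod1_control it lay within them (4.78, bounds 2.23 to 5.43, and 4.88, bounds 2.36 to 5.17). The sizes of the Psmb9 differences and of its ratios to Psmb6 are therefore uncertain. Psmb8 (chr17:34334666-34338399) overlapped Gm20496 by 2140 bases, and Gm20496 was at 13.9 and 17.5 FPKM in SunTag and 3.19 and 3.42 in Myod1_control. Psme2 (chr14:56206278-56209950) has a pseudogene copy, Psme2b-ps, at 18.2 and 17.6 FPKM in SunTag and 7.90 and 5.71 in the controls. Psmc3 overlapped Slc39a13 by 4579 bases, and Psmd13 overlapped Gm15542 by 1194 bases and Sirt3, at 60.8 to 101 FPKM, by 342. Mir686, listed at 216 to 532 FPKM, lies within the span of Psmb5, the denominator of a ratio above. Levels of these members are uncertain to the extent that reads were shared, which the tables do not show. FPKM values of Psmb8, Psmb10 and Psme1 lay above their own deposited bounds in every library, as for Psme1 in SunTag replicate 1 (184, bounds 114 to 126). The same held in every library for Psmb1, Psmc1, Psmc3, Psmd1, Psmd7 and Psmd8, as for Psmc3 in WT replicate 1 (126, bounds 86.5 to 96.0). Levels of all these genes are uncertain to that extent. Psmb10 (chr8:108459628-108462292) and Psme1 (chr14:56196960-56200366) had overlaps only with Gm16156, at most at 0.372 FPKM, and with 14 bases of Fam158a.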

How the data were processed

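Liver total RNA was sequenced on Illumina libraries (per the labels). The submitters' processing notes name cutadapt 1.11, TopHat2 2.1.1, Cufflinks 2.2.1 and the build mm9, without settings or annotation in the sources used here. Each library has 1 deposited table of FPKM values by gene. Read counts were unknown, so depth is known only as a relative value between libraries. A row with a status other than OK in some library was dropped (343 rows), and rows sharing a symbol were summed (244 symbols). Genes reaching 1 FPKM in at least 1 library, 15744, entered limma 3.58.1 (R 4.3.3) as log2(FPKM + 1), with a mean-dependent prior variance, 4 group means over 7 libraries and 3 residual and 1.93 prior degrees of freedom. The tests are two-sided, p-values were adjusted over all tested genes (Benjamini-Hochberg), and the threshold was 0.05. Differences on this scale understate changes of low genes. They are given relative to the median gene, whose shift was 0.01 (SunTag minus WT), 0.25 (Myod1_active minus Myod1_control) and -0.14 (Myod1_control minus SunTag). SE, p-values and counts used differences before that shift was taken off.

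Lists are described by counts and medians. Named members were the catalytic and cap genes, those past the threshold, the extremes of each family in difference and level, and those not tested. Some genes of the lists are not reported here. The members and lists were chosen with earlier results of these data known. The fit was tested on simulated data. Alternatives covered the pseudocount (0.1), the filter, the scaling, genes spanning under 300 bases, the libraries used and a replicate block. Coordinates of the tables are on mm9 and counted from 1.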

Additional observations from a re-analysis of the deposited data

How the results depend on the processing

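The absence of calls in SunTag against WT and in Myod1_active against Myod1_control held under every alternative run. For Myod1_control against SunTag, 13 members passed with median-ratio scaling, 0 in the fit of the 4 compared libraries and 0 to 22 with 1 library left out. Quantile normalization gave 13 lower and 1 higher (Psmd1). Leaving out genes under 300 bases together with median-ratio scaling gave 16 lower and 1 higher (Psmc4). The core median between Myod1_active and Myod1_control was 0.13 with no filter on low values. It was -0.12 with median-ratio scaling and -0.13 with that scaling and without short genes. The regulatory median there was -0.27 with a pseudocount of 0.1, -0.019 with no filter and -0.27 with median-ratio scaling. It was -0.28 with that scaling and without short genes, and -0.31 to -0.12 with 1 library left out. Between Myod1_control and SunTag the core median was -0.36 with quantile normalization and -0.55 to -0.41 with 1 library left out. The regulatory median was -0.33 with no filter, -0.14 with quantile normalization and -0.33 to -0.15 with 1 library left out, and the immunoproteasome median -1.47 to -0.87. The core median between SunTag and WT was 0.016 to 0.17, and the immunoproteasome median there -0.07 to 0.14. The ratio in SunTag over that in the controls was 1.65 to 2.35 (Psmb8 to Psmb5), 1.90 to 2.51 (Psmb9 to Psmb6) and 1.79 to 2.63 (Psmb10 to Psmb7). The fits with libraries left out have fewer samples. For the other shifts the cause was not tested.

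Libraries that share a replicate number did not deviate together (r of 0.04 for WT with SunTag, 0.03 for WT with Myod1_control and 0.00076 for SunTag with Myod1_control, across genes), so the number was not taken as a pair. With a replicate block 17 members passed in Myod1_control against SunTag and 0 in each of the other comparisons.

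Depth in reads is unknown. Each group held 1 or 2 libraries. The 2 experiments differ in sex markers, in markers of non-hepatocyte cells and in summed hepatocyte markers, which cannot be told apart from the group.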

Other observations

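Of the rows whose symbols start with a proteasome name but continue after the number, Psme2b-ps was the most abundant, at 5.71 to 18.2 FPKM over the 7 libraries. Psmb5-ps was at 0.869 to 1.5 FPKM, and Psmb6-ps and Psmb7-ps2 were at most at 0.0539 and 0.132. Psmc3ip, which encodes a meiotic recombination factor, was at 3.50 to 4.64 FPKM in WT and SunTag, at 1.62 and 2.14 in Myod1_control and at 2.83 in Myod1_active. Psma8, the testis alpha subunit, had its highest value in Myod1_active, 0.660 FPKM, and its next highest in SunTag replicate 1, 0.346. Both values are under the filter of 1 FPKM.

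Ubb, which encodes a polyubiquitin, was higher in the activated library than in both controls. It was at 521 FPKM against 305 and 282 (log2 difference relative to the median gene 0.58, limma adjusted p = 0.222) and did not pass. That value lay within the range of the WT and SunTag libraries, 440 to 642 FPKM.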
